A study of Mus musculus with 3 samples.

Results

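The genes described here encode enzymes that build and sulfate sugar chains in the Golgi of mouse dendritic cells, the cells that take up antigen and show it to T cells. They were chosen by symbol, as genes starting with St3gal, St6gal, St8sia, B3galt, B4galt, B3gnt, Galnt, Mgat, Fut, Gcnt, Chst or Ext and a number. A gene also had to be above background on at least 1 of the 3 arrays, at a detection p under 0.01. Of 86 such genes with a probe, 42 qualified, among 8055 named genes that passed the same filter. The Chst genes encode sulfotransferases, which add sulfate and not a sugar, so 34 of the 42 are glycosyltransferases in the strict sense and 8 are not.

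All 3 groups came from bone marrow of 6-week-old mice of the DBA strain, kept 8 days in medium containing 20 ng/ml GM-CSF plus 2 ng/ml interleukin-4, and 1 Illumina bead array was run for each. The labels call the culture without a named stimulus immature (imDC). Semi-mature or tolerogenic cells (tDC) then received 10 ng/ml TNF-alpha plus 50 µg/ml collagen (type II) over 4 h, and fully mature cells (mDC) 1 µg/ml lipopolysaccharide with an equal dose of collagen over 24 h. Stimulus and hours of stimulation differed together, so their parts cannot be told apart. The harvest time of imDC and the number of mice behind each culture are not given in the sources used here. Because each group was 1 array of a mixed culture, there is no test, p-value or standard error, and fewer cells of a type cannot be told apart from less RNA per cell.

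Sugar chains are assembled stepwise as proteins and lipids pass through the Golgi. Galnt enzymes start mucin-type O-glycans on serine and threonine, Gcnt enzymes branch chains, Mgat enzymes set the number of antennae on N-glycans, and B4galt and B3gnt enzymes extend antennae by turns. Sialyltransferases and several fucosyltransferases cap the ends, where Siglecs and selectins bind. Ext and many Chst enzymes act on the long chains of proteoglycans. In dendritic cells the caps and chains take part in adhesion, in chemokine binding and in contact with other leukocytes.

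Levels are log2 values after background correction and quantile normalization, and a difference of 1 on that scale is 2-fold, the size at which a gene was counted. Where just 1 of the compared arrays had a gene above background, its difference is a bound ("at least"), taken against the lowest level detected on the dim array or the probe's own level there if higher. Of the 42 genes, 34 (81.0%, against 89.2% of all 8055 named genes) were above background on all 3 arrays, 4 on 2 and 4 on 1. The last are B3gnt3 and St6galnac6 (imDC), Chst10 (tDC) and Chst1 (mDC), which passed the filter through the array on which they were highest or nearly so. By array, 40 genes were detected in imDC, 39 in tDC and 35 in mDC. Over all named genes the counts were 7700, 7590 and 7530. Just inside the threshold lay St6galnac6, with a detection p of 0.00877 in imDC, and just outside it B3galt6 and Mgat4a, with 0.01003 each in mDC. The other 42 of the 44 genes left out include St6gal2, St6galnac1, St6galnac2, St8sia2, Mgat2, Mgat5 and Fut9. No probe of these 44 genes gave a signal above 155 intensity units, which bounds what this array could see and not what the cells express.

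Against the immature culture, 3 of 41 genes differed by 2-fold in tDC and 7 of 41 in mDC. In tDC, B3gnt5 and Chst15 were higher and Galnt9 was lower. In mDC, B3gnt5 and St3gal3 were higher, and St6gal1, Gcnt2, Chst7, B3gnt7 and Galnt9 were lower. Over all genes 4.9% differed by 2-fold in tDC (2.88% higher, 2.02% lower) and 12.1% in mDC (6.16% higher, 5.96% lower, a balance that turns with median scaling), against 7.32% and 17.1% of the glycan genes. By direction, 4.88% of the glycan genes were higher and 2.44% lower in tDC, and 4.88% higher and 12.2% lower in mDC. The share lower in mDC was above that of all genes but rests on 5 genes. Counts this small do not set the genes apart as a group. The median distance from 0 was larger for the glycan genes, 0.35 against 0.24 in tDC and 0.47 against 0.32 in mDC, which was not tested. The median log2 difference of the glycan genes was 0.04 in tDC and -0.19 in mDC, or -0.12 in mDC with bounds in place of dim values, and over all genes it was -0.01 and -0.02.

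**Figure D1:**
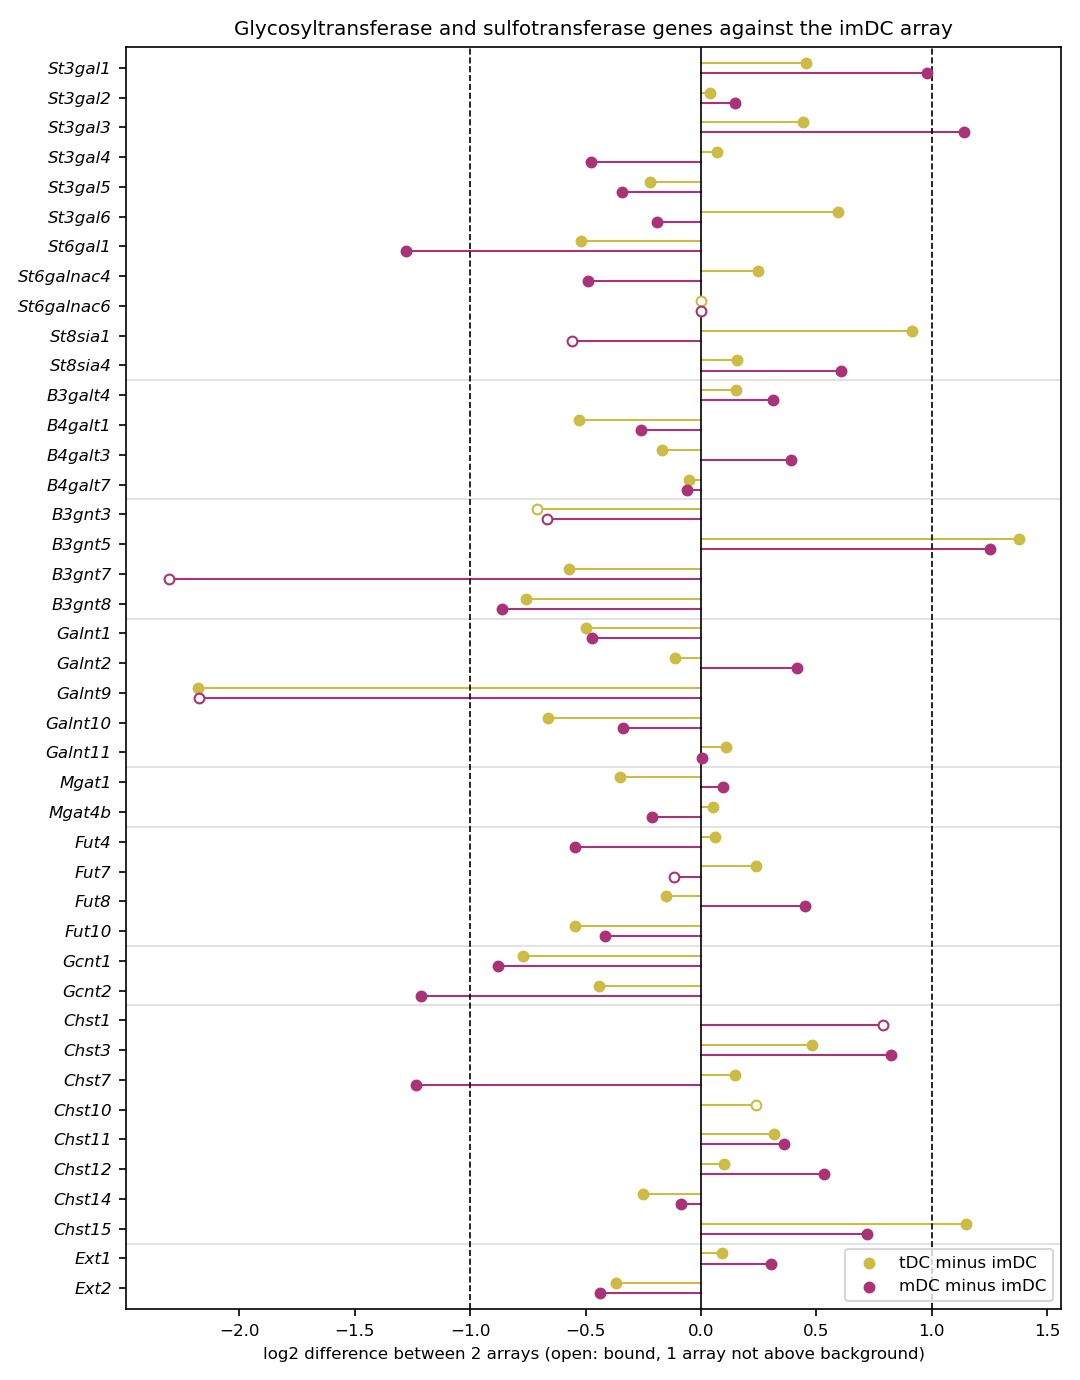
Log2 difference of each gene (horizontal axis) against the imDC array, for tDC (yellow) and mDC (purple). Open points are bounds, dashed lines mark 2-fold, grey lines part the families, and both colours share the imDC array. B3gnt5 lies right of the dashed line in both, Chst15 in tDC alone and St3gal3 in mDC alone. Galnt9 lies left of the line in both, and St6gal1, Gcnt2, Chst7 and B3gnt7 in mDC alone.

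**Figure D2:**
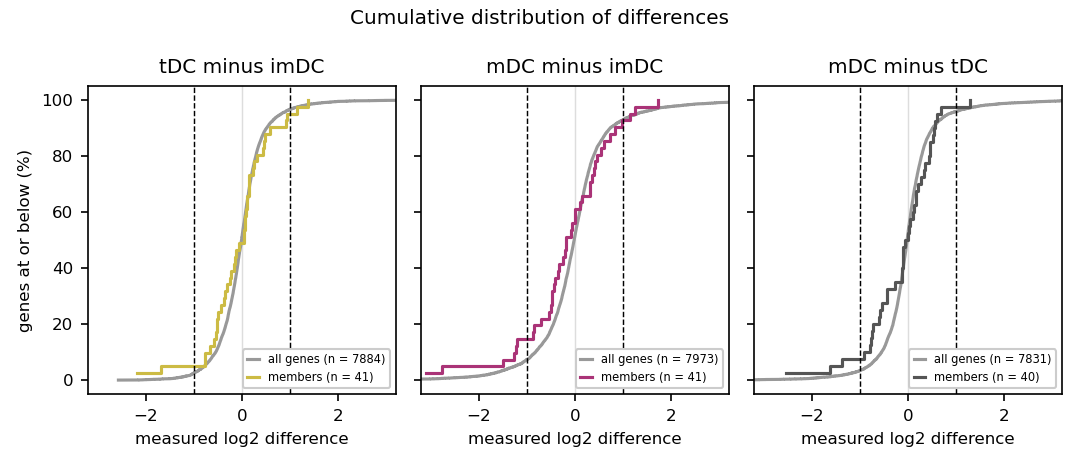
Share of genes (vertical axis, %) at or below each measured log2 difference (horizontal axis, cut at the plot's edges), for the glycan genes (colour) and all detected genes (grey). Dim genes enter at their own value. The median distance from 0 was 0.35 for the glycan genes and 0.24 for all genes in tDC minus imDC, 0.47 and 0.32 in mDC minus imDC, and 0.43 and 0.23 in mDC minus tDC.

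Sialyltransferases were the largest family, with 11 of 20 annotated genes detected. St6gal1, which puts sialic acid on the antennae of N-glycans in the linkage read by the B cell lectin CD22, gave 6556 intensity units in imDC, 4702 in tDC and 2689 in mDC. Its log2 level was 12.66, 12.14 and 11.38, highest in the immature culture and lowest after lipopolysaccharide. In mDC it was 2.42-fold lower than in imDC (log2 difference -1.28), and in tDC the difference was -0.52. One array per state gives no measure of the spread between cultures for this or any other gene.

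St3gal3, which caps the same kind of N-glycan antenna with sialic acid in another linkage, had levels of 10.13 in imDC, 10.57 in tDC and 11.27 in mDC. The order is the reverse of that of St6gal1. Its mDC level was 2.20-fold above imDC (1.14). A second, dim St3gal3 probe differed by 0.78 in the same comparison and was not above background in imDC, and with the mean of both probes the difference was 0.96, under 2-fold. St3gal1, which caps core O-glycans and so competes with their branching, had 9.29, 9.75 and 10.27. Its difference of 0.98 in mDC was just short of 2-fold. Its second, dim probe gave 0.71 and was not above background in imDC or tDC.

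The remaining sialyltransferases were within 2-fold of imDC. St8sia1, which makes the ganglioside GD3, had 6.82 in imDC and 7.73 in tDC and was not above background in mDC (6.11). It was at least 2.77-fold lower in mDC than in tDC (a bound of -1.47, or -0.89 without background correction), while its differences from imDC, 0.91 in tDC and a bound of -0.56 in mDC, were within 2-fold. St3gal6 (0.59 and -0.19), St6galnac4 (0.25 and -0.49) and St3gal4 (0.07 and -0.48) shared that order of signs, higher in tDC and lower in mDC than in imDC. St8sia4, the polysialyltransferase that modifies Ccr7 and neuropilin-2 on dendritic cells, differed by 0.16 in tDC and 0.61 in mDC. St3gal5, which makes the ganglioside GM3, differed by -0.22 and -0.34, and St3gal2 by 0.04 and 0.15. St6galnac6 was at the detection limit and gave no fold.

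Promoter sequence is shown for 3 genes with 2-fold differences, as the stretch from 250 bases before to 50 bases after a start site in RefSeq (build GRCm38.p6). RefSeq windows were found for 35 of the 42 genes, with 51 start sites in all. The 7 others are Ext1, Fut10, Galnt1, Galnt2, Mgat4b, St3gal1 and St3gal2. A pattern for NF-kB binding, the letters GGGA, any 4 bases and CC on either strand, and the core of the interferon response element, the letters GAAA, any 2 bases and GAAA on either strand, were searched for as letters only. The kB pattern stood in 20.7% of 32851 windows over all genes and in 13 of the 51 windows here (25.5%), and the interferon pattern in 3.44% and in 0 of 51. Of the 15 windows of the 9 genes with a 2-fold difference, 2 held the kB pattern, and both are shown. The third St6gal1 window (chr16:23290220-23290519, + strand) held 3 matches to the kB pattern, starting 63, 51 and 6 bases before the start site, and its other 2 windows held none. The St6gal1 and Gcnt2 windows shown were picked after their matches were seen. Capitals mark the matches, which are a description of letters and not of binding. For genes with several start sites, which of them gave the RNA that the probe measured is not known here.
St6gal1: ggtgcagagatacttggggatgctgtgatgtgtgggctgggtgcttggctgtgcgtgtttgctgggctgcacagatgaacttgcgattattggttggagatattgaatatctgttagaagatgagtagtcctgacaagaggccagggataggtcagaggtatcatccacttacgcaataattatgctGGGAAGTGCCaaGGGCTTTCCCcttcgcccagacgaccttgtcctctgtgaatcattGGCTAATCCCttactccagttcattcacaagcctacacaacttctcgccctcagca

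The detected Gcnt genes were below imDC on both other arrays. Gcnt2, which makes the branches of the I blood group antigen on chains of N-acetyllactosamine, had levels of 11.05 in imDC, 10.61 in tDC and 9.83 in mDC. That is 2.32-fold lower in mDC (-1.21) and -0.44 in tDC. The other Gcnt2 probes were not above background on any array, with measured differences of -0.09, -0.08 and 0.11 in mDC. Gcnt1, which adds the core 2 branch to O-glycans and so opens the way to selectin ligands, had 10.76, 9.99 and 9.89, differences of -0.77 and -0.88. A second Gcnt1 probe gave -0.65 and -1.01, the latter past 2-fold. One of 3 Gcnt2 windows (chr13:40917384-40917683, + strand) held a single kB match, in capitals, 14 bases before the start site.
Gcnt2: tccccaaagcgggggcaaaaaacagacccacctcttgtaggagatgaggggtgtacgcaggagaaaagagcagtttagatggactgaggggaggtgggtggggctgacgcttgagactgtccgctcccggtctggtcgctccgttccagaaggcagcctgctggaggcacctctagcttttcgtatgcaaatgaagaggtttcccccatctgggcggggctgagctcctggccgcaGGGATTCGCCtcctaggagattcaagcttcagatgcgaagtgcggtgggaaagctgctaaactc

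N-acetylglucosamine extension enzymes of the B3gnt family went apart. B3gnt5, which starts lacto-series glycolipids by adding N-acetylglucosamine to lactosylceramide, had 8.09 in imDC, 9.47 in tDC and 9.34 in mDC. It was 2.60-fold higher in tDC (1.38) and 2.38-fold higher in mDC (1.25), the one gene of the 42 past 2-fold upward against imDC in both. The tDC and mDC levels lay 0.13 apart. Because the St6gal1 and Gcnt2 windows were picked after their matches were seen, the 3 shown make no contrast of lower with higher genes. No window of Chst7, B3gnt7, Galnt9, Chst15, St3gal3 or St8sia1 held either pattern. The B3gnt5 window (chr16:19759984-19760283, + strand) also held neither in these bases.
B3gnt5: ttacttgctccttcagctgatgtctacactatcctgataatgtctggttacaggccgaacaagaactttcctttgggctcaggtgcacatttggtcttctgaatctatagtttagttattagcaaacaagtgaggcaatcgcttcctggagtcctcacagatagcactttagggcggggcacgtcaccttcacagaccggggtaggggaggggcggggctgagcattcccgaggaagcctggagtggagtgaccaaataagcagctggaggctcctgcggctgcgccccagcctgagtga

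B3gnt7, which extends the backbone of keratan sulfate, had 8.57 in imDC and 8.00 in tDC and was not above background in mDC (5.47). It was at least 4.95-fold lower in mDC than in imDC and at least 3.33-fold lower than in tDC, while tDC differed from imDC by -0.57. Without background correction the bound against imDC was -1.53 in place of -2.31, and that against tDC was -1.08 in place of -1.74. B3gnt8, which acts on the branched antennae of N-glycans, had 10.79, 10.03 and 9.93, differences of -0.76 and -0.86. Its second probe gave -0.98 and -0.76. B3gnt3, which lengthens core O-glycans, was above background in imDC alone (6.93), and its bounds of -0.71 in tDC and -0.67 in mDC did not reach 2-fold.

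**Figure D3:**
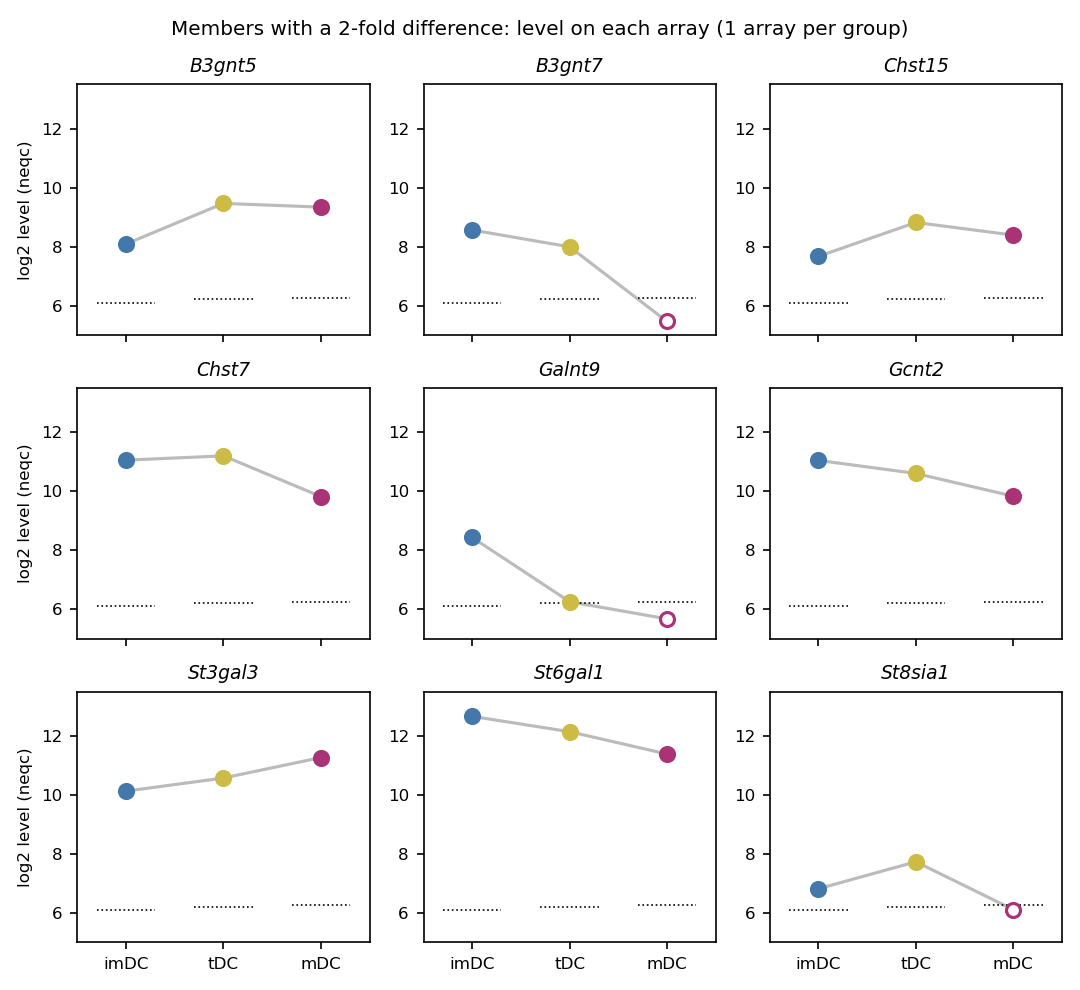
Log2 level (vertical axis) of the 9 genes with a 2-fold difference in at least 1 comparison, on the imDC, tDC and mDC arrays (1 point each). Open points were not above background, and dotted lines mark the lowest level detected on each array. B3gnt7, Galnt9 and St8sia1 drop to or under that line in mDC, and the points of B3gnt5 stand higher in tDC and mDC than in imDC.

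Of the enzymes that start mucin-type O-glycans, 5 of 13 were detected. Galnt9 had a level of 8.44 in imDC, 6.26 in tDC, close to the lowest level detected there (6.22), and was not above background in mDC (5.68). It was 4.52-fold lower in tDC and at least 4.52-fold lower in mDC. Its signals were 461, 158 and 131 intensity units, so the value in tDC rests on a probe near background, and without background correction the log2 difference was -1.42 in place of -2.18. The bound in mDC also depended on that step, and without it the gene was at least 2.68-fold lower. The 4 other genes were within 2-fold. Galnt1 differed by -0.50 in tDC and -0.47 in mDC, and its 3 further probes ran from -0.69 to -0.56 and from -0.76 to -0.49. Galnt10 differed by -0.66 and -0.34, Galnt2 by -0.11 and 0.42, and Galnt11 by 0.11 and 0.00.

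Chondroitin and other sulfotransferases were detected for 8 of 13 Chst genes. Chst15, which adds a further sulfate to chondroitin to make its E-type units, had 7.68 in imDC, 8.82 in tDC and 8.40 in mDC. It was 2.22-fold higher in tDC (1.15, or 0.90 without background correction), and in mDC the difference was 0.72. Chst7, another chondroitin sulfotransferase, had 11.06 and 11.20 in imDC and tDC and 9.82 in mDC. So mDC stood 2.35-fold below imDC and 2.60-fold below tDC, and tDC differed from imDC by 0.15.

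The other chondroitin enzymes Chst3 (0.48 in tDC and 0.82 in mDC), Chst11 (0.31 and 0.36) and Chst12 (0.10 and 0.53) lay above imDC on both arrays, within 2-fold. The 2 probes of Chst3 disagreed at the threshold in mDC, where the second gave 1.05, and in tDC the second gave 0.9987, just under 2-fold. Chst14, which sulfates dermatan, differed by -0.25 and -0.09. Chst1, which sulfates keratan chains, was above background in mDC alone (6.88), with a bound of 0.79 against imDC, and Chst10, which makes the HNK-1 epitope, in tDC alone (6.34), with a bound of 0.24.

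Core galactose, fucose and antenna enzymes varied less. The widest difference from imDC among the 4 galactosyltransferases was that of B4galt1, which adds galactose to antennae (-0.53 in tDC and -0.26 in mDC). B4galt3 of the same step differed by -0.17 and 0.39. B4galt7, which builds the linker of glycosaminoglycans, differed by -0.05 and -0.06, and B3galt4 of ganglioside synthesis by 0.15 and 0.31.

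Among the fucosyltransferases, Fut4 and Fut7 make Lewis-type caps bound by selectins. Fut4 had 7.97, 8.03 and 7.42, a difference of -0.55 in mDC, and Fut7 was near background at 6.38, 6.61 and 6.19, with a detection p of 0.0113 in mDC. Fut8, which adds the fucose at the core of N-glycans, differed by -0.15 in tDC and 0.45 in mDC, and its second detected probe gave the same values. Fut10 differed by -0.54 and -0.41. Mgat1, which opens the way to complex N-glycans, differed by -0.35 and 0.10, and Mgat4b, which adds an antenna, by 0.05 and -0.21. A second, dim Mgat1 probe was above background in mDC alone. Its measured mDC level lay 0.66 above imDC and 1.01 above tDC, both against undetected levels. Ext1 and Ext2, which together polymerize heparan sulfate, differed by 0.09 and -0.37 in tDC and by 0.30 and -0.44 in mDC. The pair thus had opposite signs on both arrays, with every difference under 0.5.

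Agreement between probes of a gene was the only internal check of these values. For 11 genes with 2 or more probes above background on all 3 arrays, the 2 brightest probes disagreed by a median of 0.11 in tDC minus imDC and 0.13 in mDC minus imDC, at most by 0.52 and 0.29. Over all genes with 2 probes detected on both arrays compared the medians were 0.13 (1846 genes) and 0.15 (1814 genes). In mDC minus tDC the disagreement was larger for the 11 genes, with a median of 0.18 (at most 0.32) against 0.13 over all (1812 genes). None of the 9 genes with a 2-fold difference is among these 11, so none of those differences has a second probe detected on all arrays.

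**Figure D4:**
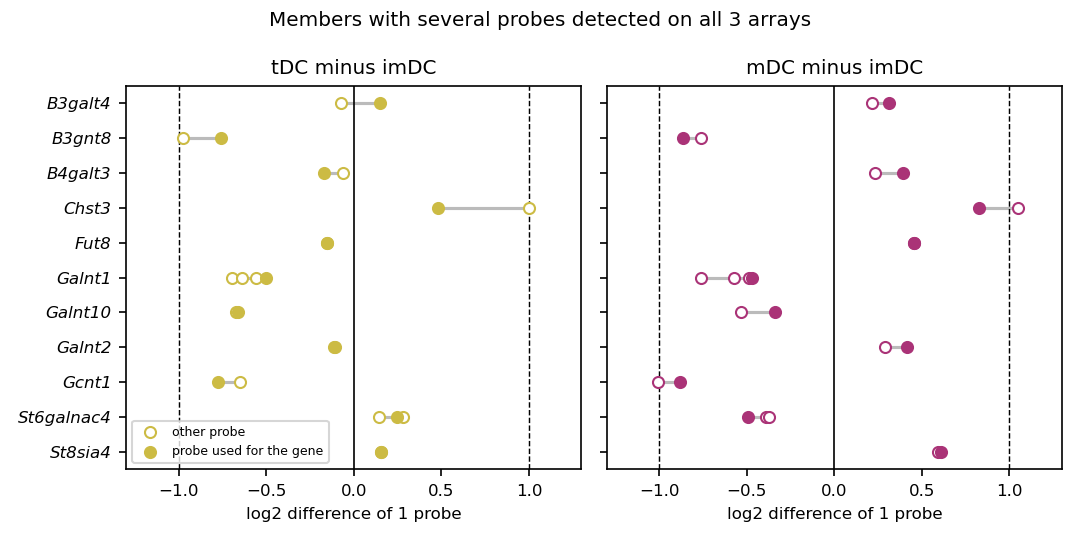
Log2 difference of each probe (horizontal axis) for the 11 genes with several probes above background on all 3 arrays, in tDC and mDC against imDC. Filled points are the probes that stand for the gene and open points the others. Probes of a gene lie on the same side of 0 for every gene but B3galt4 in tDC, and those of Chst3 lie widest apart in tDC.

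The fully mature and semi-mature arrays were also compared with each other. Of 40 genes, 0 were higher and 3 were lower by 2-fold in mDC, against 3.44% and 2.8% of all genes (6.23% either way). The 3 are Chst7, B3gnt7 and St8sia1, given above. St3gal6 (-0.78), Gcnt2 (-0.77), St6gal1 (-0.76) and St6galnac4 (-0.74) were lower within 2-fold, and St3gal3 (0.69), the bound of Chst1 (0.67) and Fut8 (0.60) stood highest. The median of the glycan genes was -0.04 and that of all genes -0.02. Each array enters a pair of the 3 comparisons, so these are not independent of one another.

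Other genes of the same pathways were described from lists. Over all genes, 2.88% were 2-fold higher and 2.02% lower in tDC than in imDC, and 6.16% and 5.96% in mDC. Counts from lists this short do not set any list apart. Of 17 detected genes that make sugar nucleotides and the sulfate donor, 0 differed by 2-fold in tDC and 2 were lower in mDC, namely Gmds of GDP-fucose synthesis (2.01-fold) and Papss2, which makes the sulfate donor PAPS (2.08-fold). None of 11 Golgi transporters of these donors differed by 2-fold in either state, and their medians were -0.02 and -0.01. Of 12 mannosidases and core enzymes, a list that includes Fut8, 2 were lower in mDC and 0 in tDC. These were the Golgi mannosidases Man1c1 (2.16-fold) and Man2a2 (at least 2.66-fold).

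Of 10 further glycosaminoglycan enzymes 1 was higher in mDC, Csgalnact1, which starts chondroitin chains. It had 6.64 in imDC, 7.23 in tDC and 8.38 in mDC, 3.35-fold above imDC. Hs3st1 of heparan sulfate was 2.13-fold lower in mDC than in tDC and just short of 2-fold lower than in imDC. Of 10 hydrolases that trim glycans, the lysosomal enzymes Gla (at least 2.08-fold in tDC) and Manba (2.40-fold in mDC) were lower and 0 were higher.

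Among 11 detected lectins that read these glycans, Siglec1, which binds sialic acid, was not above background in imDC and tDC and at least 3.31-fold higher in mDC than in imDC. Lgals9, a galectin, had 9.86, 9.04 and 10.61, 2.97-fold higher in mDC than in tDC. CD22 was not above background on any array. Of 8 detected proteins that carry the chains, the heparan sulfate proteoglycan Sdc4 was 2.90-fold higher in mDC, and Sdc3 was 3.41-fold lower in tDC and 2.84-fold lower in mDC. Cd44, the hyaluronan receptor, was 2.17-fold lower in mDC.

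**Figure D5:**
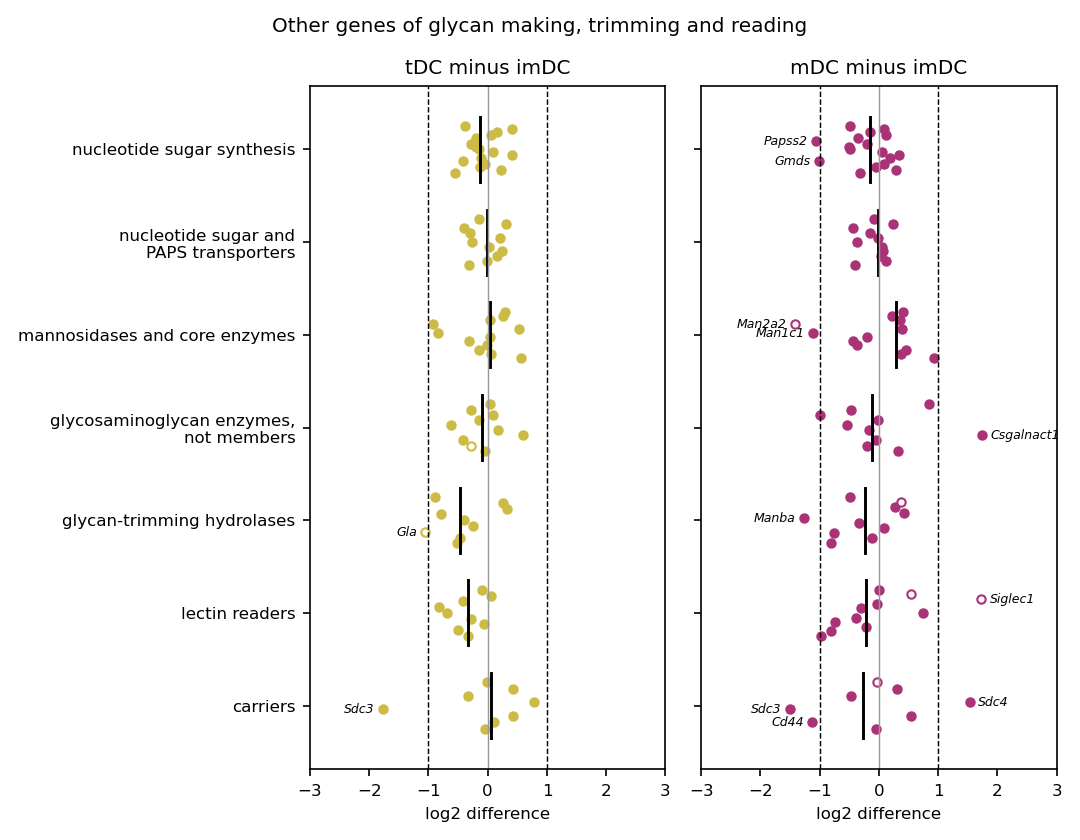
Log2 difference (horizontal axis) of each detected gene in 7 lists of related genes, in tDC and mDC against imDC. Black bars are list medians, open points are bounds, dashed lines mark 2-fold, and genes past 2-fold are named. In tDC only Gla and Sdc3 pass it, and in mDC Csgalnact1, Siglec1 and Sdc4 lie to the right and 7 genes to the left.

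The 3 arrays had 10673 to 11006 of 25697 probes above background and median signals of 125 to 132 intensity units. Dendritic cell markers were detected for 11 of 12 genes, among them Itgax, Zbtb46 and Cd74 on every array, while Flt3 was not above background on any. None of the 11 was 2-fold higher than imDC. Over all genes, 2.88% were 2-fold higher and 2.02% lower in tDC, and 6.16% and 5.96% in mDC. Itgax and Cd209a were lower in tDC, and Itgax (3.88-fold), H2-Ab1, H2-Eb1 and Cd209a were lower in mDC, where the list's median log2 difference was -0.56, against 0.07 in tDC. Markers of other cells also differed. Of 11 neutrophil markers, all above background on every array, 5 were higher than imDC in tDC and 5 in mDC, with summed linear levels of 105051 in imDC, 162680 in tDC and 178471 in mDC. Without Lcn2 the other 10 summed to 99976, 136671 and 113904. Of 6 detected mast cell and basophil markers, 2 were higher in tDC and 5 in mDC, with sums of 3429, 11131 and 31665, and Mcpt4 and Tpsb2 were not above background. Most of that rise was Hdc, and the other 5 summed to 2209, 3888 and 5276. Of 8 macrophage markers 2 were higher and 2 lower in tDC, and 2 were higher and 4 lower in mDC, with sums of 19909, 17049 and 29280 and C1qa not above background. Without Adgre1 the other 7 summed to 17911, 12758 and 13323. B cell, T and NK cell, erythroid and stromal lists had 1 to 3 genes detected each. Of these, Pf4 was 4.69-fold, Hba-a1 at least 3.31-fold and Dcn at least 2.24-fold higher in mDC than in imDC, and none reached 2-fold in tDC. The part of other cell types in the differences above was not tested.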

How the data were processed

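For each group, 550 ng of total RNA was labelled with biotin per the labels' protocols and put on a 1-colour Illumina bead array (3 in all). Signals were deposited as linear intensity values, not normalized, each beside its deposited detection p-value, per the file headers. The submitters' processing notes name GenomeStudio 2011.1. A second deposited table holds the authors' log2 values, which have a median of 6.98 in every column, and whose normalization is not given in the sources used here. Sorted, the columns differed by at most 0.000688, as quantile normalization gives.

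Signals were corrected with the normexp model (parameters from the detection p-values, offset 16), quantile normalized and put on the log2 scale (neqc in R 4.3.3 with limma 3.58.1). Probes with a detection p under 0.01 on at least 1 array entered (11556 probes). The platform annotation named 23978 probes, 23962 of them with an Entrez gene ID in the RefSeq table of assembly GRCm38.p6, and none with several genes. The other 1719 probes are unnamed and were not used. The kept probe with the highest mean level stood for a gene. Except where a gene's probes were averaged, each difference was taken within 1 probe. Levels of different probes were compared to choose that probe and were added up in the marker sums. Closely related family members can share probe binding.

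The genes, lists and named genes were chosen with earlier results of these data known. Every gene at 2-fold is named with its 3 levels. Other pathway genes are named where they reached 2-fold, and a few others by role (such as CD22) after their values were seen. The computation was tested on simulated arrays with known changes, and 98% to 100% of log2 changes of 1.5 or 3 either way were called. Only bright probes detected on all 3 arrays were changed there, so bounds and values near background were not tested. The noise was set by hand and every planted change lay past the 2-fold line. The result thus checks the computation and gives no measure of the spread between cultures. The alternatives were no background correction, median scaling, an offset of 50, the authors' values, 2 other detection filters and the mean of a gene's probes.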

Additional observations from a re-analysis of the deposited data

How the results depend on the processing

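No paired analysis was possible because each group has 1 array, so the groups share a single replicate number, and no array could be left out of a group. Of 13 differences of the glycan genes at 2-fold, 10 stayed there in every alternative that gave them a value and 0 changed sign. The exceptions were Chst15 in tDC minus imDC (0.90 without background correction), St8sia1 in mDC minus tDC (-0.89 without it and -0.88 with the authors' values) and St3gal3 in mDC minus imDC (0.96 with the mean of its probes). Genes higher in tDC than in imDC numbered 2, and 1 both without background correction and with the authors' values. With the mean of probes, 1 gene in place of 2 was higher in mDC than in imDC. With a detection p under 0.05, 2 genes in place of 1 were lower in tDC than in imDC, adding B3gnt3. The same filter gave 3 in place of 2 higher (adding Chst1) and 6 in place of 5 lower (adding B3gnt3) in mDC than in imDC, and 1 in place of 0 higher in mDC than in tDC (Chst1). Restricting to genes detected on all 3 arrays, which removes 8 of the 42, left 0 genes lower in tDC than in imDC, 3 of 5 lower in mDC than in imDC and 1 of 3 lower in mDC than in tDC. At the detection p under 0.05 the bound of B3gnt7 was -2.93 in mDC minus imDC and -2.36 in mDC minus tDC, and with the authors' values it was -1.54 and -1.08. Beyond the smaller set of genes under the strict filter, the cause of these changes was not tested. Over all genes, those at 2-fold numbered 227 higher and 159 lower in tDC minus imDC, and 148 and 79 without background correction. For mDC minus imDC they numbered 491 and 475, and 450 and 555 with median scaling, which turns the balance. For mDC minus tDC they numbered 269 and 219, and 188 and 132 without background correction. Signals near background limit the values of Galnt9, B3gnt7, St8sia1, B3gnt3, Chst1, Chst10, Fut7 and St6galnac6.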
